A study of Mus musculus with 2 samples.

Results

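Cardiac macrophages were chosen from single cell RNA-seq libraries of P1 and P7 mouse hearts by the transcripts they contained. A cell was taken as a macrophage when at least 4 of the 6 genes C1qa, C1qc, Csf1r, Fcgr1, Mrc1 and Adgre1 had at least 1 UMI (unique molecular identifier, a tag that counts each captured mRNA molecule once) and when Cdh5, of endothelial cells, and Pdgfra, of fibroblasts, had none. This selected 162 of the 13502 cells kept, namely 74 of 4991 at P1 and 88 of 8511 at P7. Kept cells had between 200 and 8000 genes and no more than 20% mitochondrial UMIs.

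The study made these libraries to find hypoxia and HIF pathways that differ between hearts at postnatal days 1 and 7, between which the capacity to regenerate is lost. Each age was a single library of live cells sorted with a 7-AAD viability stain from 3 pooled littermate hearts, digested for 20 min at P1 and for 45 min at P7. The hearts were described as intact, and strain, genotype and sex were not given for them. For the study as a whole, the paper states that both sexes were used and names a background strain for its genetically modified lines. The libraries held 63585504 UMIs in 7836 barcodes at P1 and 98346195 UMIs in 9077 barcodes at P7, of which 18 barcode sequences occurred in both libraries, none of them in a macrophage.

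Macrophages are phagocytes that clear dying cells, sense infection and supply growth factors to the tissue around them. In the developing mouse heart they are seeded first from yolk sac and foetal liver progenitors, and these resident cells are known for TIMD4, LYVE1 and FOLR2. Blood monocytes, which carry the chemokine receptor CCR2, enter later and in injury. Type I interferon acts on nearly every cell type through its receptor and switches on a set of antiviral genes.

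With 1 library per age there was no replicate and no test between ages. UMIs of a gene were summed over the macrophages of a library and divided by their total, which was 1120588 UMIs at P1 and 1187553 at P7, and scaled by the usual factor to give CPM (counts per 1e+06 UMIs). Differences are log2 ratios of these sums, P1 over P7, with 0.5 counts added to each. Every interval is a 95% interval for counting error alone and does not cover the spread between animals. Those of summed UMIs do not cover the spread between cells either.

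The libraries also differed in sex. Xist, which is transcribed from the inactive X chromosome of females, had 813 UMIs in P1 macrophages and 0 at P7. Of genes on the Y chromosome, Eif2s3y had 79, Ddx3y 71, Uty 15 and Kdm5d 15 UMIs at P7, and all 4 had 0 at P1. Age, sex, litter and digestion time therefore cannot be told apart in any difference given here.

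Macrophages were 1.48% of kept cells at P1, with a 95% Clopper-Pearson interval of 1.17 to 1.86%, and 1.03% at P7, with an interval of 0.830 to 1.27%. Their median depth was 13854.5 UMIs per cell at P1 and 13040 at P7, against 10875 and 10104 UMIs over all kept cells. All 6 rule genes were detected in 47 of the 74 P1 cells and in 72 of the 88 P7 cells. Just inside the rule, 14 cells at P1 and 8 at P7 had exactly 4 of the genes. Just outside it, 50 and 34 cells had 3 of them. The exclusion of cells with Cdh5 or Pdgfra removed 15 cells at P1 and 33 at P7.

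**Figure D1:**
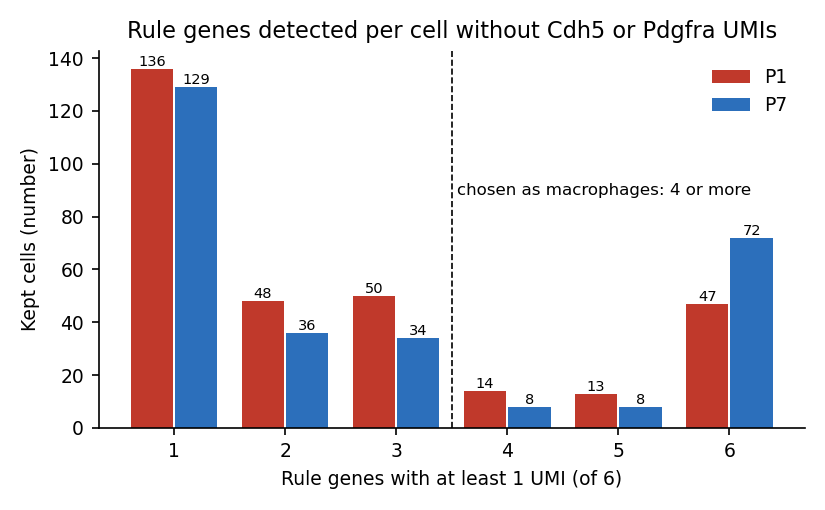
Number of kept cells without Cdh5 or Pdgfra UMIs (y axis) by how many of the 6 rule genes had at least 1 UMI (x axis), in the P1 library (red bars) and the P7 library (blue bars). Cells with no rule gene are not drawn. The 74 P1 and 88 P7 macrophages lie right of the dashed line, and most of them have all 6 genes, while 50 and 34 cells stop at 3.

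The values of the rule genes chose the cells and are given as a description. C1qa and C1qc, subunits of the complement component C1q, had 3865 and 2874 CPM at P1 and 4900 and 2978 CPM at P7. Csf1r, the receptor for the macrophage growth factors CSF1 and IL-34, had 839 and 1069 CPM, and the high-affinity IgG receptor gene Fcgr1 had 455 CPM at both ages. The mannose receptor gene Mrc1 had 565 CPM at P1 and 1109 CPM at P7, the largest ratio of the 6, and Adgre1, which encodes F4/80, had 235 and 358 CPM.

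Genes that the rule did not use were set beside the label. Tyrobp and Fcer1g, signalling adaptors of myeloid cells, were detected in 74 and 74 of the 74 P1 cells and in 88 and 87 of the 88 P7 cells. Ptprc, the pan-leukocyte gene for CD45, was detected in 65 and 79 cells, and the lysosomal marker Cd68 in 71 and 84 cells. Of 20 macrophage identity genes outside the rule, none was at least 2-fold higher at P1 and only Cd14 was at least 2-fold higher at P7, with a median log2 ratio of -0.05 beside -0.03 for all 5470 genes tested. Cd14, the co-receptor for lipopolysaccharide, had 560 UMIs at P1 (500 CPM) and 1393 at P7 (1173 CPM), a log2 ratio of -1.23 (-1.38 to -1.09). Other myeloid cells were kept cells with Ptprc, Tyrobp and Fcer1g UMIs and fewer than 4 rule genes, 264 at P1 and 146 at P7, and in them Cd14 had 852 CPM at P1 and 716 CPM at P7. Since these cells have Ptprc, Tyrobp and Fcer1g by definition, those genes mark both sets as myeloid and do not tell macrophages from them. Of the 20 identity genes, 13 had more CPM in macrophages than in other myeloid cells at P1 and 14 at P7, with no test, since the rule separates these sets. C1qb, the third C1q subunit, had 3336 against 16.6 CPM at P1 and 3507 against 4.0 CPM at P7, and Ms4a7, a membrane protein of macrophages, had 232 against 8.58 and 454 against 4.0 CPM. Lyz2, the lysozyme gene of myeloid cells, was higher in the other myeloid cells, at 10630.3 against 3009 CPM at P1 and 13660 against 3831 CPM at P7.

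Of the 5470 genes with at least 50 summed UMIs, 154 (2.82%) were at least 2-fold higher at P1 and 119 (2.18%) at least 2-fold higher at P7. At these shares a list of 33 genes or fewer, the size of each list counted here, would hold under 1 such gene in either direction. Most were spread over many cells. Of the 154 genes, 144 were detected in 10 or more cells of the P1 library and 16 took over 50% of their UMIs from a single cell. Of the 119 genes, these numbers were 113 and 5. When the cell with the most UMIs of each gene was left out, 97 and 79 of these same genes were still past 2-fold.

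The 10 largest ratios towards P1, among genes with at least 100 UMIs there, belonged to Cd207, Ms4a4c, Rtp4, Irf7, Id1, Id3, St3gal5, Fcna, Slfn5 and Thbs1. Their log2 ratios ran from 4.11 for Cd207 to 2.32 for Thbs1. Irf7 is a transcription factor that amplifies interferon production, Rtp4 is an interferon-induced gene first described as a chaperone of membrane receptors, and Id1 and Id3 encode inhibitors of helix-loop-helix factors. Fcna, which encodes a ficolin, rested mainly on 1 cell with 175 of its 251 P1 UMIs, and without that cell its log2 ratio was 0.93.

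The 10 largest ratios towards P7 belonged to Retnla, Trbc2, Apold1, Cbr2, Clec10a, Ighm, Pltp, Phlda1, Lpl and Cd36. The first pair rested on single cells. Retnla, which encodes the secreted protein RELMα, had 749 of its 750 UMIs in 1 P7 cell, and Trbc2, a T cell receptor constant region, had 147 of 155 in 1 P7 cell. Ighm, the immunoglobulin heavy chain of B cells, was detected in 12 of 74 cells at P1 and in 64 of 88 at P7, in small amounts of at most 18 UMIs per cell. In endothelial cells Ighm had 0.265 CPM at P1 and 13.1 CPM at P7, in 0.314 and 1.46% of cells, and lymphocytes made up 0.922% of kept cells at P1 and 4.16% at P7. The part of lymphocyte RNA in these values was not tested.

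Interferon response genes were a group with higher levels at P1. Of 13 genes of the list that were tested, 10 were at least 2-fold higher at P1 and only Cxcl10 at least 2-fold higher at P7, against 2.82 and 2.18% of all genes tested, with a median log2 ratio of 1.39 beside -0.03 for all genes tested. At P1 Rtp4 had 266 UMIs in 57 of 74 cells (237 CPM), and at P7 it had 22 UMIs in 13 of 88 cells (18.5 CPM). This is a log2 ratio of 3.65 (3.05 to 4.38).

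Irf7 had 146 UMIs in 47 cells at P1 (130 CPM) and 12 UMIs in 8 cells at P7 (10.1 CPM), a log2 ratio of 3.63 (2.84 to 4.67). Isg15, a ubiquitin-like modifier, had 93 UMIs in 34 cells and 13 UMIs in 6 cells, with a log2 ratio of 2.88 (2.08 to 3.88). Bst2, which encodes tetherin and holds virus particles at the cell surface, had 301 CPM at P1 and 74.9 CPM at P7, with a log2 ratio of 2.00 (1.66 to 2.36). The P1 cell with the most UMIs held 20 of the 266 for Rtp4, 13 of the 146 for Irf7, 6 of the 93 for Isg15 and 22 of the 337 for Bst2, so these UMIs were spread over many cells.

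Stat2, which encodes a signal transducer of the interferon receptor, had a log2 ratio of 1.10 (0.27 to 2.02). The RNA sensors and effectors Oasl2, Zbp1 and Oas1a had log2 ratios of 2.52, 2.22 and 1.06. Several further members were too low to be tested but were seen almost only at P1. Ifit3, which encodes a protein that binds foreign RNA, had 41 UMIs in 22 P1 cells and 0 at P7, which is at least 14.5-fold higher at P1 when 3 counts are set as the floor for P7. Usp18, a negative regulator of the interferon receptor, had 19 UMIs in 11 cells and 0 at P7, at least 6.71-fold higher by the same floor. Ifi27l2a, the member with the most UMIs, differed least among the members above 0 apart from Gbp3, with 833 CPM at P1 and 595 CPM at P7.

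Counted cell by cell at an equal depth of 2000 UMIs, the interferon list gave a median of 4 UMIs per P1 macrophage, from 0 to 19, and a median of 1 UMI per P7 macrophage, from 0 to 14. At least 1 UMI of the list was found in 66 of 72 P1 cells and in 57 of 87 P7 cells. Without Ifi27l2a these were 61 of 72 and 42 of 87 cells. The ranges of the ages overlapped, and cells without any interferon UMI occurred at both.

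Many of the interferon genes share a sequence feature that the choice of cells did not use. The letters GAAANNGAAA, the core of the interferon-stimulated response element, which IRF proteins bind, were searched on both strands in the 250 bases before the gene start and the 50 bases after it, in RefSeq promoters of GRCm38.p6. They occurred in 12 of the 18 list genes that had a promoter entry (66.7%) and in 936 of 27025 promoters of all genes (3.46%). Among genes at least 2-fold higher at P1 in macrophages the motif was in 19 of 118 promoters (16.1%), and among those at least 2-fold higher at P7 in 2 of 85 (2.35%). For all genes tested these were 152 of 4358 (3.49%). The 118 include genes of the interferon list, such as Isg15 and Bst2, and the share without them was not taken. Neither Irf7 nor Oasl2 held these letters in this window, while Cxcl10, the list gene at least 2-fold higher at P7, held 1 match. Promoters of 4 genes higher at P1 are shown as the 160 bases that end at the base before the RefSeq gene start, 5′ to 3′ on the strand of the gene, with matches to the motif in capitals, because they let the reader compare number and spacing of the matches.
Isg15: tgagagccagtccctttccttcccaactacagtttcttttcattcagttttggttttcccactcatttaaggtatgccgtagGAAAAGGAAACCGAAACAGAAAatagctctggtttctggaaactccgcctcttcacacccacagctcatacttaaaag
Bst2: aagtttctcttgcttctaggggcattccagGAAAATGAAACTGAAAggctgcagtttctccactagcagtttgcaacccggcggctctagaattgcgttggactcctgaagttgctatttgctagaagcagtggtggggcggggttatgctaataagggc
Ifit3: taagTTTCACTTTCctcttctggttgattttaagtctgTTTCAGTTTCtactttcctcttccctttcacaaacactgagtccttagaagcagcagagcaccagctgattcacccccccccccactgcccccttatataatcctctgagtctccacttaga
Slfn5: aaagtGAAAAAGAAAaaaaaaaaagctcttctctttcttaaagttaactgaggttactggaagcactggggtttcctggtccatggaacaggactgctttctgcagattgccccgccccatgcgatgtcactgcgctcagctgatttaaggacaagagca

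The Isg15 window, at chr4:156200819-156200978 on the minus strand, held 3 overlapping matches that begin 78, 72 and 66 bases before the gene start. That of Bst2, at chr8:71537473-71537632 on the minus strand, held 2 overlapping matches at 130 and 124 bases, and that of Ifit3, at chr19:34583369-34583528 on the plus strand, held 2 separate matches on the opposite strand at 156 and 122 bases. Slfn5, a schlafen family gene outside the list, had a single match at 155 bases in chr11:82951942-82952101 on the plus strand. Slfn5 had 163 UMIs in 52 P1 cells and 33 UMIs in 19 P7 cells, a log2 ratio of 2.37 (1.84 to 2.97).

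Macrophages were not the only cells with more interferon response transcripts at P1. Irf7 was higher at P1 also in endothelial cells (log2 ratio 1.97, 1.72 to 2.24), fibroblasts (1.05, 0.70 to 1.41) and other myeloid cells (1.40, 0.94 to 1.93), in each case with a smaller ratio than in macrophages. Isg15 followed the same order of macrophages first, with 1.51 in endothelial cells, 1.12 in fibroblasts and 0.92 in other myeloid cells. Bst2 had log2 ratios of 1.33 and 1.38 in endothelial cells and fibroblasts but -0.34 in other myeloid cells. The median over the list was 1.17 in endothelial cells (22 genes), 0.80 in fibroblasts (18 genes) and 1.24 in other myeloid cells (11 genes). These are medians over different genes. Over the 8 genes tested in every class they were 2.26 in macrophages, 1.42 in endothelial cells, 1.08 in fibroblasts and 1.16 in other myeloid cells. Differences between the classes were not tested.

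**Figure D2:**
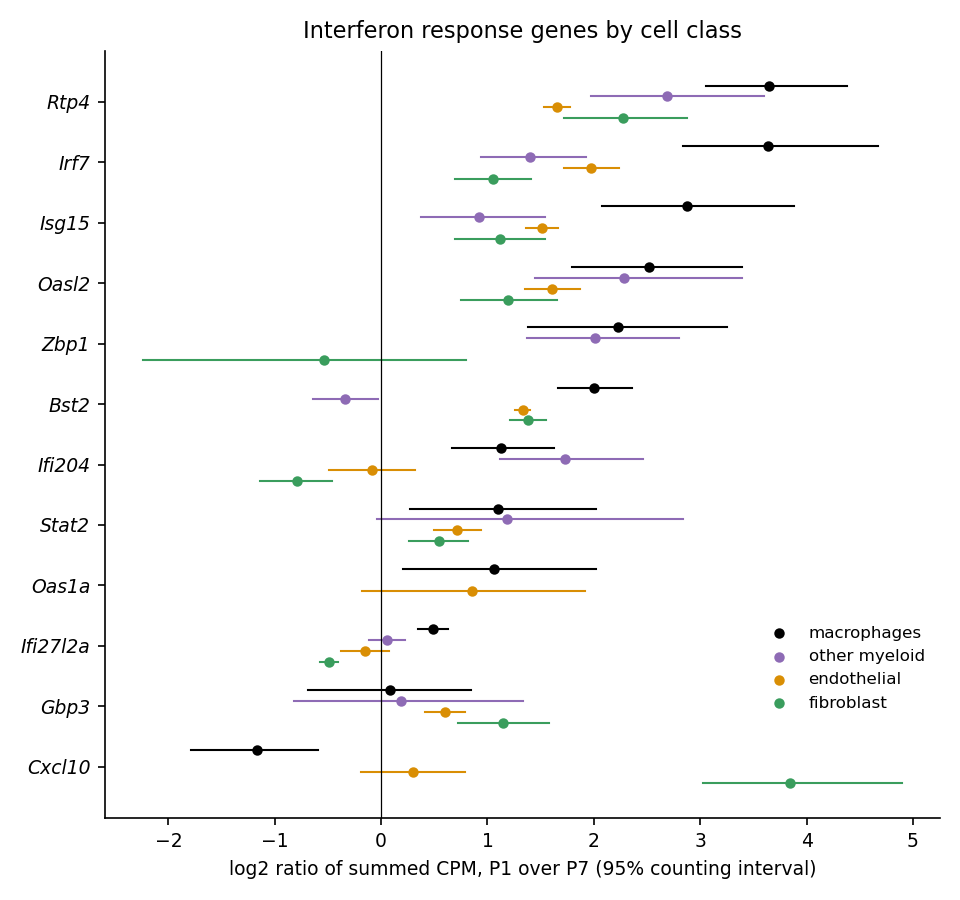
Log2 ratio of summed CPM, P1 over P7 (x axis), for 12 of the 13 interferon response genes tested in macrophages (y axis), in macrophages (black), other myeloid cells (purple), endothelial cells (orange) and fibroblasts (green). Points are the ratios and lines their 95% counting intervals, and a gene with under 20 UMIs in a class, or at 0 in a library, is not drawn there. Rtp4, Irf7, Isg15 and Oasl2 lie right of 0 in all 4 classes, and Cxcl10 lies left of 0 in macrophages.

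Genes of monocyte-derived and recruited macrophages also lay towards P1. All 15 tested were above 0, 11 were at least 2-fold higher at P1 and none at least 2-fold higher at P7, where 2.82 and 2.18% of all genes tested were, and the median log2 ratio was 1.48 beside -0.03 for all genes. In other myeloid cells the median ratio of this list was 0.15 over 20 genes. Over the 11 genes tested in every class it was 1.48 in macrophages and 0.12 in other myeloid cells. Ifitm3, an antiviral membrane protein that interferon also induces, had 1083 CPM at P1 in 66 cells and 291 CPM at P7 in 55 cells, with a log2 ratio of 1.90 (1.73 to 2.08). Plac8, abundant in Ly6C-high monocytes, was found in 20 P1 cells (533 UMIs) and in 6 P7 cells (202 UMIs), with a log2 ratio of 1.48 (1.25 to 1.72). Most of these UMIs came from cells at the edge of the rule, since those with exactly 4 rule genes held 355 of the 533 UMIs at P1 and 200 of the 202 at P7. In cells with all 6 rule genes Plac8 had 80 UMIs in 9 of 47 cells at P1 and 1 UMI in 72 cells at P7.

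S100a6 and S100a4, calcium-binding proteins of migrating cells, had log2 ratios of 1.77 and 1.45. Thbs1, the matrix protein thrombospondin 1, had 129 UMIs in 19 cells at P1 and 27 in 11 cells at P7. Some members rested on few cells. Chil3, a chitinase-like protein, had 82 UMIs in 4 P1 cells, 51 of them in 1 cell, and 0 at P7. Fn1, fibronectin, had 138 of 273 P1 UMIs in 1 cell, and its log2 ratio was 2.21 with that cell and 1.20 without it.

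Ccr2 itself, the receptor that defines recruited cells, differed less than these genes, with 216 UMIs in 30 of 74 P1 cells and 178 UMIs in 20 of 88 P7 cells, a log2 ratio of 0.36 (0.07 to 0.66). In the P1 library 16 of the 30 cells with Ccr2 also had Plac8, and 5 had Ly6c2, a classical monocyte marker. In the P7 library these were 4 and 1 of 20 cells. Rtp4 was found in 80.0% of cells with a Ccr2 UMI and 75.0% of cells without one at P1, and in 5.0 and 17.6% of them at P7, where 1 cell had both. These shares were not tested.

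Genes of resident macrophages lay on the other side. Of 17 tested, 7 were at least 2-fold higher at P7, only Fcna was at least 2-fold higher at P1, beside 2.18 and 2.82% of all genes tested, and the median log2 ratio was -0.81. Folr2, a folate receptor, had 77 UMIs in 17 of 74 cells at P1 (68.7 CPM) and 260 UMIs in 41 of 88 cells at P7 (219 CPM), a log2 ratio of -1.67 (-2.06 to -1.30). Lyve1, a hyaluronan receptor, had 146 CPM in 12 cells and 311 CPM in 30 cells, with a log2 ratio of -1.08 (-1.36 to -0.82), which was -0.85 without the P7 cell that had the most. Timd4, a phosphatidylserine receptor, was low, with 19 and 32 UMIs in 7 and 11 cells and an interval of its log2 ratio of -0.65 that spans 0 (-1.57 to 0.19).

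Cbr2, a carbonyl reductase, and Clec10a, a lectin for terminal galactose and N-acetylgalactosamine, both had log2 ratios of -2.66. Cbr2 was detected in 15 cells at P1 and 42 at P7, and Clec10a in 16 and 49 cells. Gas6, which bridges dying cells to the receptors AXL and MERTK, had 164 UMIs in 29 cells at P1 and 517 UMIs in 73 cells at P7 (log2 ratio -1.57, -1.84 to -1.32). Igf1, insulin-like growth factor 1, had 77 UMIs in 22 cells and 201 UMIs in 53 cells (-1.29, -1.70 to -0.91). Cd209f had 66 UMIs in 5 P7 cells and 0 at P1, at least 20.8-fold higher at P7 with 3 counts as the floor, and 38 of the 66 came from 1 cell.

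These genes tended to sit in the same cells. At P7, 23 of the 41 cells with Folr2 also had Lyve1, against 14.9% of the cells without Folr2, and 30 of the 41 had Cbr2, against 25.5%. At P1 the overlaps were 8 and 9 of 17 cells, against 7.02 and 10.5%. The cells with Folr2 were deeper, with a median of 15104 UMIs against 11711 at P7, which raises every share in them.

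For a comparison at equal depth, 2000 UMIs were drawn from every cell, and the 2 P1 cells and the 1 P7 cell with fewer were set aside. A UMI of Timd4, Lyve1 or Folr2 was then found in 7 of 72 P1 macrophages (9.72%, 95% Clopper-Pearson interval 4.0 to 19.0%) and in 31 of 87 at P7 (35.6%, 25.6 to 46.6%). At full depth the shares were 31.1 and 56.8%, and the shares expected over all possible draws of 2000 UMIs were 15.6 and 34.1%, so this draw lay low at P1. As background at the same thinned depth, Folr2 was found in 0 of 1524 endothelial cells at P1, which with 3 counts as the floor allows a share of cells with a UMI of up to 0.197%, and in 0 of 3071 at P7, up to 0.0977%. At full depth Folr2 had 0 UMIs in P1 endothelial cells and 4 UMIs at P7. Lyve1, which lymphatic endothelium also makes, was found in 6.30 and 0.521% of endothelial cells, and a UMI of any of the 3 genes in 0.150% of fibroblasts at P1 and none of 2362 at P7. Before thinning, endothelial cells had medians of 10712.5 and 7894 UMIs and fibroblasts 14826 and 16712.5.

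A Ccr2 UMI was found in 16 of 72 P1 cells (22.2%, 13.3 to 33.6%) and in 10 of 87 P7 cells (11.5%, 5.65 to 20.1%), with overlapping intervals. No thinned cell at either age had both a Ccr2 UMI and a UMI of Timd4, Lyve1 or Folr2, but at full depth 5 of the 17 Folr2 cells at P1 and 5 of the 41 at P7 also had Ccr2. The cells with neither were 49 of 72 at P1 and 46 of 87 at P7, and they held intermediate levels of the resident list, 5520 CPM at P1 and 6258 CPM at P7. Cells in the resident gate had 12466 and 13134 CPM of that list and cells with Ccr2 had 972 and 3619 CPM, which partly follows from the gates' own genes.

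In cells of the resident gate the interferon list had 1287 CPM at P1 (1097 to 1500) and 1088 CPM at P7 (992 to 1191), with overlapping intervals. In cells with Ccr2 it had 3109 and 802 CPM, and in cells with neither 2175 and 935 CPM. Without Ifi27l2a, its most abundant gene, the list had 853 CPM at P1 and 432 CPM at P7 in the resident gate. The intervals of these values were apart, at 699 to 1029 and 372 to 498 CPM. In cells with Ccr2 the list without Ifi27l2a had 1726 and 272 CPM, and in cells with neither 1444 and 368 CPM. With 7 to 49 cells per set these sums describe few cells.

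**Figure D3:**
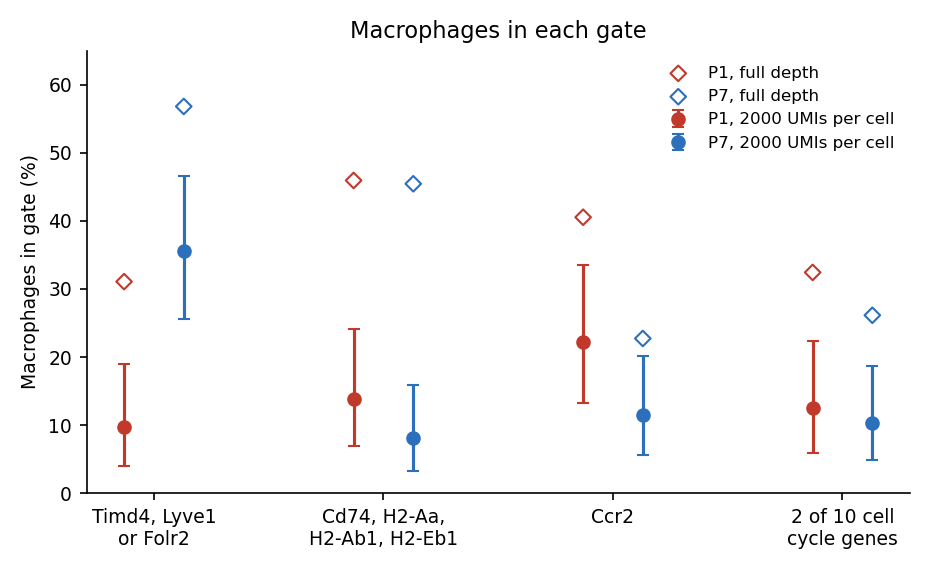
Share of macrophages in each gate (y axis, percent) at P1 (red) and P7 (blue) for 1 or more UMIs of Timd4, Lyve1 or Folr2, for 2 or more UMIs of the 4 MHC class II genes, for 1 or more UMIs of Ccr2, and for 2 or more of 10 cell cycle genes. Filled points are shares after thinning to 2000 UMIs per cell with 95% Clopper-Pearson intervals, and open diamonds are shares at full depth. In this draw the intervals of P1 and P7 are apart in the first gate, at 9.72 and 35.6%, where the shares expected over all draws are 15.6 and 34.1%, and they overlap in the other gates.

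A small set of P1 cells stood out by Cd207, the gene for the endocytic lectin langerin. It had 122 UMIs in 12 of 74 P1 cells, at most 21 in any of them, and 7 UMIs in 1 P7 cell. All 12 cells had Id3 and 11 of them had Id1, against 30.6 and 25.8% of the other P1 macrophages, and 6 of the 12 had Clec4f, against 3.23%. The cells with Cd207 were deeper, at a median of 18963 UMIs against 13262.5. Summed over macrophages, Id3 had 385 CPM at P1 and 43.8 CPM at P7, with a log2 ratio of 3.12 (2.72 to 3.58). In endothelial cells, where Id3 is abundant, the ratio was -0.31, and in fibroblasts 0.65.

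Clec4f and Id3 are known from Kupffer cells, the macrophages of the liver. Of 10 genes of a list of Kupffer and splenic red pulp macrophages, 5 were tested and 3 were at least 2-fold higher at P1, as were 2.82% of all genes tested. Fcna, 1 of the 3, had a log2 ratio of 0.93 without the cell that held 175 of its 251 P1 UMIs. At P1 the cell with the most UMIs of the list held 191 of 1081. The list summed to 965 CPM at P1 and 285 CPM at P7 in macrophages and to more, 1259 and 1185 CPM, in other kept cells. Its most abundant gene was Id3 at P1 and Slc40a1 at P7, and Cdh5, which the choice of cells excluded, was at 0 at both ages, as was Cd5l at P7. Clec4f had 30 UMIs in 8 P1 cells and 2 UMIs in 1 P7 cell. Further defining genes were low, with 7 UMIs of Cd5l, all in 1 P1 cell, and 8 UMIs of Spic at P1 and 18 at P7. The part of cells from another organ in this set was not tested.

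Chemokine genes moved both ways. Of 14 tested, 3 were at least 2-fold higher at P1 and 3 at P7, beside 2.82 and 2.18% of all genes tested, and the median log2 ratio was -0.56 beside -0.03. Ccl12, a ligand of CCR2, had 302 UMIs in 39 P1 cells and 1120 UMIs in 55 P7 cells, a log2 ratio of -1.81 (-2.00 to -1.62). Ccl2 and Ccl7, ligands of the same receptor, had log2 ratios of -0.74 and -0.95, and Cxcl1 and Cxcl10 had -1.59 and -1.17. Cxcl14 had 63.4 CPM at P1 and 10.1 CPM at P7, a log2 ratio of 2.60 (1.76 to 3.67), and Cxcl16 had 1.19. Ccl6 had 242 of its 489 P1 UMIs in 1 cell, and its ratio of 1.41 was 0.42 without that cell. In fibroblasts Cxcl1, a neutrophil attractant, had 181 CPM at P1 and 81.2 CPM at P7, a log2 ratio of 1.16 (1.09 to 1.23), while in macrophages it had 49.1 and 149 CPM.

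Of 10 growth factor genes, 2 were at least 2-fold higher at P1 and 2 at P7 (2.82 and 2.18% of all genes tested), with a median of 0.00, and 1 of those at P1, Spp1, rested on a single cell. Bmp2, a bone morphogenetic protein, had 10 UMIs in 6 P1 cells and 75 UMIs in 26 P7 cells, a log2 ratio of -2.76 (-3.94 to -1.87). Lgals3, the lectin galectin 3, went the other way, with 702 CPM in 56 cells at P1 and 213 CPM in 30 cells at P7 (1.72, 1.51 to 1.93). Spp1, which encodes osteopontin, had 132 of its 170 P1 UMIs in 1 cell, and its log2 ratio of 1.84 became -0.31 without that cell.

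Of 17 lipid genes, 2 were at least 2-fold higher at P1 and 3 at P7, where the shares over all genes tested were 2.82 and 2.18%, and the median was -0.08. Those higher at P7 act in lipid transfer and uptake. The phospholipid transfer protein gene Pltp had 35.7 CPM at P1 and 168 CPM at P7, lipoprotein lipase (Lpl) had 58.0 and 242 CPM, and the fatty acid receptor gene Cd36 had 53.5 and 221 CPM. Abcg1, a cholesterol exporter, had 77 UMIs in 35 cells at P1 and 19 UMIs in 14 cells at P7, and Apoc1 had a log2 ratio of 1.72. Apoe, the most abundant gene of the list, had 11960 CPM at P1 and 16405 CPM at P7.

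Of 21 genes for the clearance of dying cells, 1 was at least 2-fold higher at P1 and 3 at P7, with a median of -0.07. A single gene of 21 is close to the 2.82% of all genes tested that were higher at P1, and the share at P7 was 2.18%. Pros1, which like Gas6 bridges phosphatidylserine to MERTK, had a log2 ratio of -1.16 (-2.01 to -0.40). The receptors themselves had ratios on the other side, 0.98 (0.58 to 1.39) for Axl and 0.62 for Mertk, whose interval includes 0. Cd300lf, an inhibitory receptor for lipids of dying cells, had 56 UMIs in 29 P1 cells and 14 UMIs in 10 P7 cells, a log2 ratio of 2.05 (1.22 to 3.04).

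Few lysosome and iron genes passed 2-fold, which also held for all genes tested, of which 2.82% did at P1 and 2.18% at P7. None of 24 lysosome genes was at least 2-fold higher at P1 and 1 was at P7, with a median log2 ratio of 0.09. The cathepsin gene Ctsb had 2760 and 1973 CPM. None of 13 iron and haem genes passed 2-fold in either direction, with a median of 0.19, and the ferritin genes Ftl1 and Fth1 had log2 ratios of 0.21 and 0.19. Hmox1, which degrades haem, had a log2 ratio of 0.94 that became -0.49 without a single P1 cell with 263 of 419 UMIs.

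Of 9 complement genes, Cfp, which encodes the activator properdin, was at least 2-fold higher at P1 (log2 ratio 1.13, 0.85 to 1.42), and the median of the list was 0.32. Among 13 Fc receptor and C-type lectin genes 1 was higher at P1 and 4 at P7 by this measure. The activating receptor gene Fcgr4 had levels of 91.9 and 36.2 CPM at P1 and P7, while the inhibitory receptor gene Fcgr2b had 75.9 and 162 CPM.

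Among 23 transcription factors of macrophages, Irf7 and Id2 were at least 2-fold higher at P1 and Klf2 and Mitf at least 2-fold higher at P7, with a median of -0.01. Klf2, a factor that restrains inflammatory activation, had 410 CPM in 53 cells at P1 and 1037 CPM in 77 cells at P7 (log2 ratio -1.34, -1.50 to -1.18). Spi1, which encodes the lineage factor PU.1, had 585 and 547 CPM.

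Of the MHC class II genes, which present peptides to T cells, H2-Aa, H2-Ab1 and H2-Eb1 rested on 6 cells or fewer at each age. H2-Aa had 102 UMIs in 6 P1 cells and 112 UMIs in 3 P7 cells, of which 79 and 88 came from a single cell of each library. Cd74, the invariant chain, was detected more widely, in 48 and 50 cells, but 233 of 534 and 152 of 431 UMIs came from a single cell of each. After thinning, 10 of 72 P1 cells (13.9%) and 7 of 87 P7 cells (8.05%) had at least 2 UMIs of Cd74, H2-Aa, H2-Ab1 and H2-Eb1, with overlapping intervals of 6.87 to 24.1% and 3.30 to 15.9%. No direction can be read for these genes. H2-DMa, which encodes a chain of the chaperone that loads peptides, was spread more evenly, with 139 UMIs in 52 P1 cells and 227 UMIs in 64 P7 cells and a log2 ratio of -0.62 (-0.94 to -0.31).

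Of 14 genes for inflammatory cytokines and sensors, only Il1a was at least 2-fold higher at P1 and none at P7. Its log2 ratio of 1.04 was 0.48 without the cell with the most UMIs and -2.23 after thinning to 2000 UMIs per cell, so the call was not stable. Il1b had 307 and 220 CPM in 28 cells of each library. The 35 immediate early and heat shock genes, which tissue dissociation can induce, summed to 17466 CPM at P1 and 21712 CPM at P7, with a median log2 ratio of -0.33 over the 27 tested. The longer digestion was that of P7, and its part in this difference was not tested.

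Of 33 cell cycle genes, Nusap1, which bundles spindle microtubules, was at least 2-fold higher at P1 and Ccnd1, cyclin D1, at least 2-fold higher at P7. The shares over all genes tested were 2.82 and 2.18%, and the median of the list was 0.01. Nusap1 was detected in 11 P1 and 5 P7 cells, and its log2 ratio of 1.12 was 0.72 without the cell with the most UMIs. Mki67 had 131 UMIs in 20 P1 cells and 158 UMIs in 18 P7 cells, but 75 of the latter came from 1 cell, and the log2 ratio of -0.19 was 0.74 without the cell with the most UMIs. At least 2 of 10 cell cycle genes were found in 9 of 72 thinned P1 cells (12.5%, 5.88 to 22.4%) and in 9 of 87 thinned P7 cells (10.3%, 4.84 to 18.7%).

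Transcripts of regulators of the hypoxia pathway, which the study addressed in the epicardium, were sparse in macrophages. Hif1a had 44 UMIs in 29 P1 cells and 41 UMIs in 30 P7 cells, with a log2 ratio of 0.18 (-0.46 to 0.84). Epas1, which encodes HIF-2α, had 8 and 5 UMIs, and the prolyl hydroxylase gene Egln1 had 23 and 22. Of 19 HIF pathway genes and targets tested, only Loxl2 was at least 2-fold higher at P1, with 45 of its 51 UMIs in 1 cell, and none at P7. The shares over all genes tested were 2.82 and 2.18%. The median of the list was 0.22, with 13 of 19 genes above 0. In other myeloid cells, endothelial cells and fibroblasts it was -0.10, -0.07 and -0.02, over 27, 39 and 42 genes. Over the 17 genes tested in every class it was 0.22 in macrophages and -0.25, -0.08 and 0.05 in those classes. These differences were not tested. The glycolytic genes Gapdh and Ldha, in 72 and 68 P1 cells and 88 and 82 P7 cells, both had log2 ratios of 0.24. The intervals of the log2 ratios were wide, from -1.03 to 2.72 for Epas1, from -0.76 to 1.06 for Egln1 and from -0.59 to 1.36 for the kinase gene Pdk3. Vegfa, a hypoxia-induced angiogenic factor, had 8 UMIs in P1 macrophages and 1 in those of P7, too few to give it a direction, since its log2 ratio of 2.59 (0.18 to 8.56) became -0.33 when 3 of 6 rule genes sufficed.

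**Figure D4:**
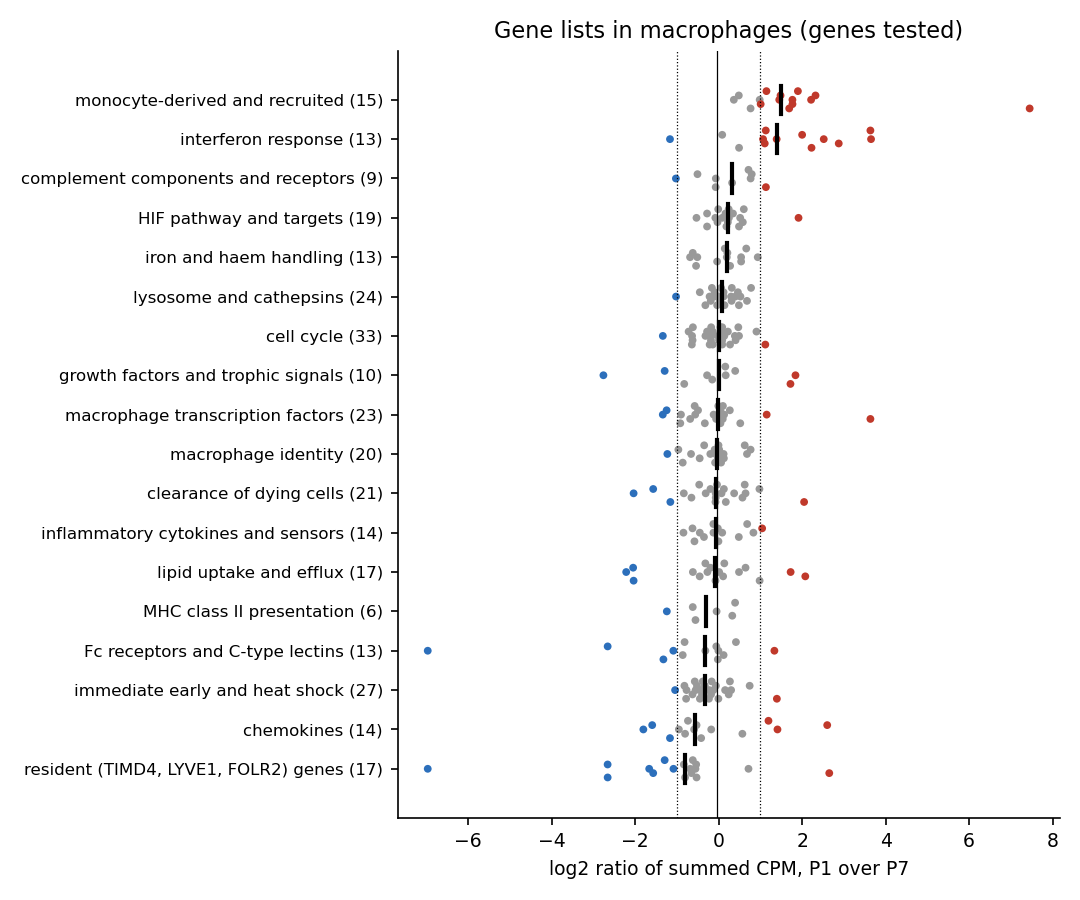
Log2 ratio of summed CPM in macrophages, P1 over P7 (x axis), for the tested genes of 18 lists (y axis, number of genes in brackets), each point a gene and each thick bar a list's median. Red and blue points are at least 2-fold higher at P1 and P7, with dotted lines at that limit and the thin line at the median of all 5470 genes, -0.03. The medians run from 1.48 for monocyte-derived genes and 1.39 for interferon response genes to -0.81 for resident genes.

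Markers of endothelial cells, fibroblasts and neutrophils were lower in macrophages than in the remaining kept cells. The sum of lymphocyte markers was not, but Cd79b held 124 of its 131 UMIs at P1 and 1 cell held 191 of 292 at P7. The 12 endothelial markers summed to 226 CPM at P1 and 280 CPM at P7, against 10768 and 8510 CPM in other kept cells, with Fabp4 the most abundant and Cdh5 at 0 by choice. The 12 fibroblast markers summed to 468 and 498 CPM, against 16322 and 26887 CPM, with Gsn the most abundant and Pdgfra at 0 by choice. The 14 neutrophil markers summed to 84.8 and 37.1 CPM, against 2948 and 563 CPM, with Ly6g, Elane and Mpo at 0 in both libraries. Of 14 dendritic cell markers, summing to 386 and 191 CPM in macrophages and 387 and 362 CPM in other kept cells, Bst2 was the most abundant, and Clec9a, Itgae and Ccl22 were at 0 at both ages.

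Lymphocyte markers summed to 117 CPM at P1, mostly Cd79b, with 12 of the 14 genes at 0, and to 246 CPM at P7, mostly Trbc2 from 1 cell, with 6 at 0. In other kept cells they summed to 38.8 and 220 CPM. Alveolar macrophage markers, of which Chil3 was the most abundant at P1 and Lpl at P7, summed to 356 and 312 CPM, with 3 and 7 of 16 genes at 0, and to 763 and 522 CPM in other kept cells. Lpl held 287 of the 371 UMIs at P7. Of the 4 tested, Ear2, Chil3 and Abcg1 were at least 2-fold higher at P1 and Lpl at P7, with a median log2 ratio of 1.56. Chil3 also stands in the list of monocyte-derived genes, and the part of lung cells in that group was not tested. Microglia markers summed to 601 and 1037 CPM, against 6358 and 8954 CPM in other kept cells. Cardiomyocyte markers summed to 203 and 144 CPM, against 1147 and 395 CPM, and erythroid markers to 19.6 and 40.4 CPM, against 1989 and 2610 CPM. Alveolar epithelial markers summed to 43.7 and 21.9 CPM, against 307 and 39.5 CPM, and mast cell markers had 0 UMIs at P1 and 2 at P7.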

How the data were processed

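Single cell 3′ libraries were made on the 10x platform, 1 per age. The authors deposited unnormalised UMI counts per gene and barcode, made with Cell Ranger 3.1.0 and with mm10 (GRCm38) named in the submitters' processing notes. Per the study's methods, doublets and poor cells were removed by upper limits on genes and mitochondrial content. The upper gene limit was applied here too, and no doublet caller was run. Counts were read with Python 3.11.15 (numpy 2.4.6, scipy 1.17.1, pandas 2.3.3). Genes were compared where both libraries together had at least 50 UMIs, and a gene was called at 2-fold or more. Intervals were exact Poisson, conditional binomial or Clopper-Pearson at 95% and cover counting error only. The intervals of the log2 ratios were tested on simulated data in which each sum was a single Poisson draw. Such data hold no spread between cells, so this checks the formula for counting error only. Thinning drew 2000 UMIs per cell without replacement.

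The genes named were the rule genes, the gate genes, the 10 largest ratios in each direction among genes that reached 100 UMIs at either age (leaving out mitochondrial, sex-linked, haemoglobin and unnamed gene models), up to 4 genes per list and 5 genes of the study. Other genes named were chosen after their values were seen. Members and lists were chosen with earlier results of these data known. A few genes of the lists are counted in them but not reported here by name.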

Additional observations from a re-analysis of the deposited data

Results flagged for a closer look

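In 3 cases the median log2 ratio of a gene list lay at least 0.5 below 0 in macrophages and at least 0.5 above 0 in another cell class, and none of these differences was tested. The resident macrophage list had a median log2 ratio, P1 over P7, of -0.81 in macrophages (17 genes) but 0.89 in endothelial cells (8 genes) and 1.28 in fibroblasts (7 genes). Over the 2 genes of this list tested in every class the medians were -0.61 in macrophages, 2.41 in endothelial cells and 1.89 in fibroblasts. The chemokine list had a median of -0.56 in macrophages (14 genes) and 1.61 in fibroblasts (10 genes), and over the 3 genes shared by all classes -0.59 and 1.95. Smaller medians of opposite sign occurred for further lists, among them immediate early and heat shock genes with -0.33 in macrophages, 0.16 in other myeloid cells, 0.11 in endothelial cells and 0.26 in fibroblasts.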

How the results depend on the processing

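No paired analysis was possible because each age was a single library, and for the same reason no replicate could be left out. Of the alternatives for named genes, 1388 kept their side of the 2-fold limit, 62 fell within it, 20 passed it and 18 changed sign with a value past it. A further 53, within the limit on both sides, also changed sign, and the 71 sign changes concerned 25 of 93 genes. Of those for list medians, 279 moved little and 9 moved. The cause of these moves was not tested.

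With 3 of 6 rule genes, macrophages were 2.48% of kept cells at P1 and 1.43% at P7, the medians were 0.86 for MHC class II and 0.90 for monocyte-derived genes, the Ccr2 shares were 39.5 and 25.8%, and the log2 ratios were 0.47 for H2-Eb1, 1.38 for H2-Aa, 1.51 for H2-Ab1 and -0.33 for Vegfa. With 5 of 6, the MHC class II median was -1.40. With Cdh5 or Pdgfra cells kept, the P7 share was 1.42%, 256 genes were higher at P7, and the medians of macrophage identity and cell cycle genes were 0.073 and 0.096, with Loxl2 at -0.14. The share of calls that were higher at P1 was 56.4%, but 46.5% with 3 of 6 rule genes, 38.2% with Cdh5 or Pdgfra cells kept (158 and 256 genes, against 154 and 119), 44.9% after thinning to 2000 UMIs and 47.5% without cells with 2 markers of another class at that depth.

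Leaving out cells with 2 markers of another class left 2 cells per library (0.0401 and 0.0235% of kept cells), so genes, lists and gates were not run. Judged at 2000 UMIs, a choice made after seeing the data, the shares were 1.00 and 0.599%, the medians -1.33 for MHC class II and -0.23 for cell cycle genes, and Spp1 -0.30. Without the top 6% of cells by UMIs, Spp1 was at -0.22 and Loxl2 at -4.32. Thinning gave 22 and 27 genes higher at P1 and P7 among 924, with Il1a at -2.23 and Epas1 at -2.05. Without cycling cells, the cell cycle median was -0.74, Spp1 -0.49 and Top2a -1.12. Limits of 20 and 200 summed UMIs gave 330 and 36 genes higher at P1, and 318 and 29 at P7.

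Without the cell with the most UMIs of each gene, also chosen after seeing the data, 101 genes were higher at P1, the MHC class II median was 1.07, and H2-Eb1 was at 2.22, H2-Aa at 2.15, H2-Ab1 at 2.12, Ube2c at 1.85, Spp1 at -0.31 and Loxl2 at -1.07. The MHC class II gate held 2.70% of P1 cells at 1000 UMIs, 4.17% with 5 UMIs required and 19.5% of P7 cells with 1. The resident gate held 18.2% of P7 cells at 1000 UMIs, 23.2% of P1 cells at 4000, and 18.4% of P7 cells with 2 UMIs required.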
